A study of Mus musculus with 16 samples.

Results

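Total RNA of leukaemic cells from mice on a diet with 0.8 g/kg valine was set against total RNA from mice on the control diet with 8 g/kg valine. These are 4 of the 16 libraries of the series, 2 per diet, and the comparison covered the 10054 of 12012 genes whose mean was at least 1 FPKM (fragments counted per kilobase of a gene's length and adjusted for library size) over the 8 total RNA libraries. The mice were C57BL/6 recipients of secondary transplants of a T cell leukaemia (T-ALL, the acute lymphoblastic kind) produced by NOTCH-ΔE, a constitutively active Notch. After 3 weeks on the diets, leukaemic cells were sorted from the spleen by their GFP. The groups used here were the 0.8 g/kg diet, its 0.4 g/kg and 0 g/kg neighbours, and the 8 g/kg control, all in the same leukaemia model and strain. Each group had 1 library labelled T-ALL 2 and 1 labelled T-ALL 3. The labels do not say whether these numbers stand for tumours, recipients or both, nor give the age or sex of the mice or the promoter of the transgene, so a p-value here reflects only how these samples spread, which may be technical. The sample labels give valine per kg of diet, while the protocol speaks of valine in drinking water for the 0.4 and 0.8 diets.

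Valine is an essential branched-chain amino acid, so mammalian cells depend on the diet for it. When an amino acid runs short, uncharged tRNA activates the kinase GCN2, which phosphorylates the initiation factor eIF2α and so favours translation of the transcription factor ATF4. ATF4 in turn drives genes for amino acid synthesis, uptake and one-carbon metabolism, while the kinase complex mTORC1 lowers its activity towards ribosome production. The study is titled for a link between valine tRNA and the level of complex I, the mitochondrial NADH dehydrogenase of the respiratory chain, so the comparison asks which mRNAs differ at a reduced but not absent valine supply.

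No gene passed the test at 0.8 g/kg. Limma called 0 of 10054 genes at an adjusted p under 0.05 (0% of the genes tested), and the lowest adjusted p was 1. An unadjusted p under 0.05 was reached by 132 genes on the higher side (1.31%) and 215 on the lower side (2.14%), together 347 genes (3.45%) against the 502.7 that uniform p-values would give. Equal depth gave 196 higher and 222 lower, and median-centred libraries 153 and 192. Limma voom on reads recovered from the FPKM values also called 0, with 206 genes higher and 146 lower at an unadjusted p under 0.05, so the larger side depended on the method. A log2 change of at least 1 in size was found for 2.31% of genes on the higher side and 4.54% on the lower. The median log2 change over all genes was -0.03. Each gene named below had an adjusted p of 1 by limma, and its direction is given as a value and not as a called change. Pairs of values within a diet are in the order T-ALL 2, T-ALL 3, and errors of log2 changes are standard errors.

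The differences of the 2 T-ALLs from control were nearly uncorrelated across genes. Across the 10054 genes, the log2 change in T-ALL 2 and that in T-ALL 3 had a Pearson r of 0.0052 and a Spearman rho of 0.028, and 50.9% of genes had the same sign. Among the 3403 genes with a mean of at least 20 FPKM, these values were 0.050, 0.082 and 52.7%. Genes within a library are not independent, and each correlation rests on 1 pair of libraries per T-ALL, matched by a number of unknown meaning. The median absolute log2 change, 0.25, was below the median standard error, 0.37. The correlations therefore cannot tell whether some genes shared a change. The 0.8 g/kg libraries lay above both controls for 13.8% of genes and below both for 17.8%, and 2 libraries against 2 cannot give an exact permutation p below 0.333 for a single gene.

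**Figure D1:**
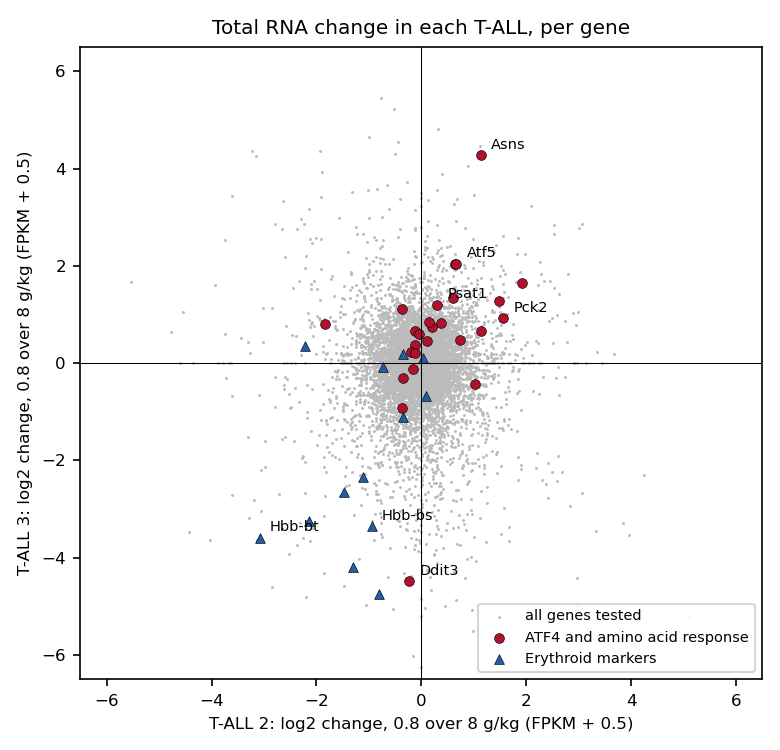
Log2 change of each gene at 0.8 over 8 g/kg valine in T-ALL 2 (x axis) and T-ALL 3 (y axis), on the log2(FPKM + 0.5) scale. Grey points are the 10054 genes tested, circles the ATF4 and amino acid response list and triangles the erythroid markers. The grey cloud has no slope (r of 0.0052). At the upper right lie 14 of 26 ATF4 list members (23.3% of all genes). In the lower left lie 9 of 13 erythroid markers (27.6% of all genes). Among these 9 are Klf1 and Hbb-bt, which reached 1 FPKM only through the 8 g/kg libraries, so their direction was fixed by that filter.

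Libraries differed in depth and spread, and the part of either in the lack of calls was not tested beyond equal depth, at which limma also called 0 genes. The 0.8 g/kg libraries held 916047 (T-ALL 2) and 364685 (T-ALL 3) reads, and the 8 g/kg libraries 1269364 and 846162, so the 0.8 g/kg library was the shallower one in each T-ALL. Genes at 0 reads made up 10.2% and 15.7% of the table at 0.8 g/kg and 7.64% and 9.04% at 8 g/kg. The T-ALL 3 library at 0.8 g/kg stood apart from the other total RNA libraries on the first principal component, at 67.2 against -26.2 to 15.9 for the other 7. The 2 libraries at 0.8 g/kg differed from each other at least 2-fold (1 on the log2 scale) for 2030 genes, or 20.2%, against 1121, or 11.2%, at 8 g/kg. The median standard error of a log2 change was 0.37, with a 95% interval reaching 0.84 to either side. It was 0.71 for genes of 1 to 5 FPKM and 0.16 for genes of at least 100 FPKM. In simulated libraries of the same design, 16.4% of genes changed by 1 on the log2 scale were called, and 85.1% of those changed by 2. The changed genes were drawn only from those with a mean of at least 5 FPKM, so the shares do not cover genes of 1 to 5 FPKM. Every gene was given the same spread beyond counting error. Whether the simulated libraries spread as widely as the 2 at 0.8 g/kg was not tested. The shares may therefore not hold for the libraries compared here.

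Genes of the ATF4 and amino acid response stood on the higher side at 0.8 g/kg. Of 26 members tested, of 30 in the table, 21 were higher and 5 lower, with a median log2 change of 0.42 beside -0.03 for all genes, of which 46.4% were higher. The 0.8 g/kg libraries lay above both controls for 11 members (13.8% of all genes) and below both for 4 (17.8% of all genes). An unadjusted p under 0.05 was reached by 7 members on the higher side (1.31% of all genes) and 1 on the lower (2.14%), and limma called 0. The median was 0.18 in T-ALL 2 and 0.70 in T-ALL 3. With the T-ALL 2 sample on 0.8 g/kg left out it was 0.63, and with the T-ALL 3 sample left out 0.32, with 17 members higher. The list took 21.5 and 28.2 of every 10000 reads in T-ALL 2 and T-ALL 3 at 0.8 g/kg, against 20.1 and 19.0 at 8 g/kg.

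Among the synthetic enzymes of this response, Asns, which makes asparagine, had 8.22 FPKM in T-ALL 2 and 46.8 FPKM in T-ALL 3 at 0.8 g/kg, against 3.47 and 1.93 FPKM at 8 g/kg. Both 0.8 g/kg libraries lay above both controls, yet the T-ALL 3 library was several times as high as its T-ALL 2 partner. The log2 change was 2.71 ± 0.68 (SE), with a 95% interval of 1.15 to 4.27 and an unadjusted limma p of 0.0036. The gene lies at chr6:7675165-7693209 (GRCm38.p6). Pck2, the mitochondrial phosphoenolpyruvate carboxykinase at chr14:55540263-55550020, differed less between the T-ALLs. It had 18.5 and 17.0 FPKM at 0.8 g/kg, against 5.92 and 8.76 FPKM at 8 g/kg, a log2 change of 1.24 ± 0.29, with an unadjusted limma p of 0.0021. Psat1, an aminotransferase of serine synthesis, had 102 and 146 FPKM at 0.8 g/kg, against 82.2 and 63.4 FPKM at 8 g/kg, a log2 change of 0.75 ± 0.21, with an unadjusted limma p of 0.0058. For both genes the groups did not overlap.

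The promoter sequences of Asns and Pck2 are shown because a sequence resembling the element bound by ATF4 with its C/EBP partners, TGATGNAA, lies close to their starts. The windows run from 30 bases before the match to 30 after it or to the gene's start, 5′ to 3′ on the gene's strand, from RefSeq (GRCm38.p6), and capitals mark the match. The Asns window is chr6:7693210-7693262, minus strand, and the Pck2 window chr14:55540133-55540200, plus strand, where the match is on the opposite strand.
Asns: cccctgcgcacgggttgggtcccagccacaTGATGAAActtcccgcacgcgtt
Pck2: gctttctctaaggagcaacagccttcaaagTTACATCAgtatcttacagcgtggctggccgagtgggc
On both strands of the 250 bases before the start, the motif was found in 5 of the 25 list members with a promoter sequence (Asns, Pck2, Pycr1, Jdp2 and Got1). Counted in the same way per gene, it was found in 3.91% of all 27025 genes with a promoter sequence and 2.26% of the 7733 tested genes with one. A match says only that these letters are there. Of the other 3, the proline synthesis enzyme Pycr1, the transcription factor Jdp2 and the aspartate aminotransferase Got1 had log2 changes of 1.34 ± 0.83, -0.64 ± 0.66 and 0.27 ± 0.27.

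The one-carbon enzymes Mthfd2 and Shmt2 and the regulator Atf5 were higher in T-ALL 3 than in T-ALL 2 at 0.8 g/kg. Mthfd2, of mitochondrial folate metabolism, had 45.4 and 67.1 FPKM at 0.8 g/kg, against 34.8 and 37.9 FPKM at 8 g/kg, a log2 change of 0.60 ± 0.25, with an unadjusted limma p of 0.045. Shmt2, the mitochondrial serine hydroxymethyltransferase, had 146 and 207 FPKM, against 131 and 116 FPKM, and the transcription factor Atf5 had 11.7 and 48.6 FPKM, against 7.22 and 11.4 FPKM. In each of these 3 genes the T-ALL 3 library at 0.8 g/kg was the highest of the 4 compared, and the T-ALL 2 library was closer to its control. Shmt2 and Atf5 had log2 changes of 0.50 ± 0.18 and 1.35 ± 0.56, and the alanine aminotransferase Gpt2 one of 1.38 ± 0.58; these 3 were named after their values were seen.

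Regulators of the response had mixed values. Atf4 itself had 52.9 and 91.7 FPKM at 0.8 g/kg, against 54.3 and 60.1 FPKM at 8 g/kg, a log2 change of 0.28 ± 0.35, and the groups overlapped. Leaving out the T-ALL 3 sample on 0.8 g/kg turned the Atf4 value to -0.11. Ddit3, which encodes the stress factor CHOP, had 5 and 0 reads (T-ALL 2, T-ALL 3) at 0.8 g/kg, against 8 and 8 reads at 8 g/kg, a log2 change of -2.35 ± 0.99, with an unadjusted limma p of 0.043. Trib3, a pseudokinase induced by ATF4 and CHOP, had 0 and 1 reads, against 3 and 1, too few to give a direction.

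Across the 4 diets, in order of valine, the list took 30.2 and 33.6 of 10000 reads in T-ALL 2 and T-ALL 3 at 0 g/kg, 26.0 and 25.9 at 0.4 g/kg, 21.5 and 28.2 at 0.8 g/kg, and 20.1 and 19.0 at 8 g/kg. The T-ALL 2 library at 0.8 g/kg was thus near the controls, and the T-ALL 3 library lay between those at 0.4 and 0 g/kg. For Asns the same order gave 49.8 and 56.2 FPKM, 22.3 and 12.3 FPKM, 8.22 and 46.8 FPKM, and 3.47 and 1.93 FPKM. Against 0 g/kg the list's median at 0.8 g/kg was -0.49, with 4 members higher and 22 lower, and against 0.4 g/kg it was -0.07. Of the 26 members tested, Stc2 reached the minimum of 1 FPKM only through the 0 g/kg libraries. Its direction against 0 g/kg was thus fixed by that filter. Limma called 0 of 10054 genes at 0.8 against 0 g/kg (0%) and 0 at 0.8 against 0.4 g/kg (0%). These comparisons share the 0.8 g/kg libraries with the one against control.

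**Figure D2:**
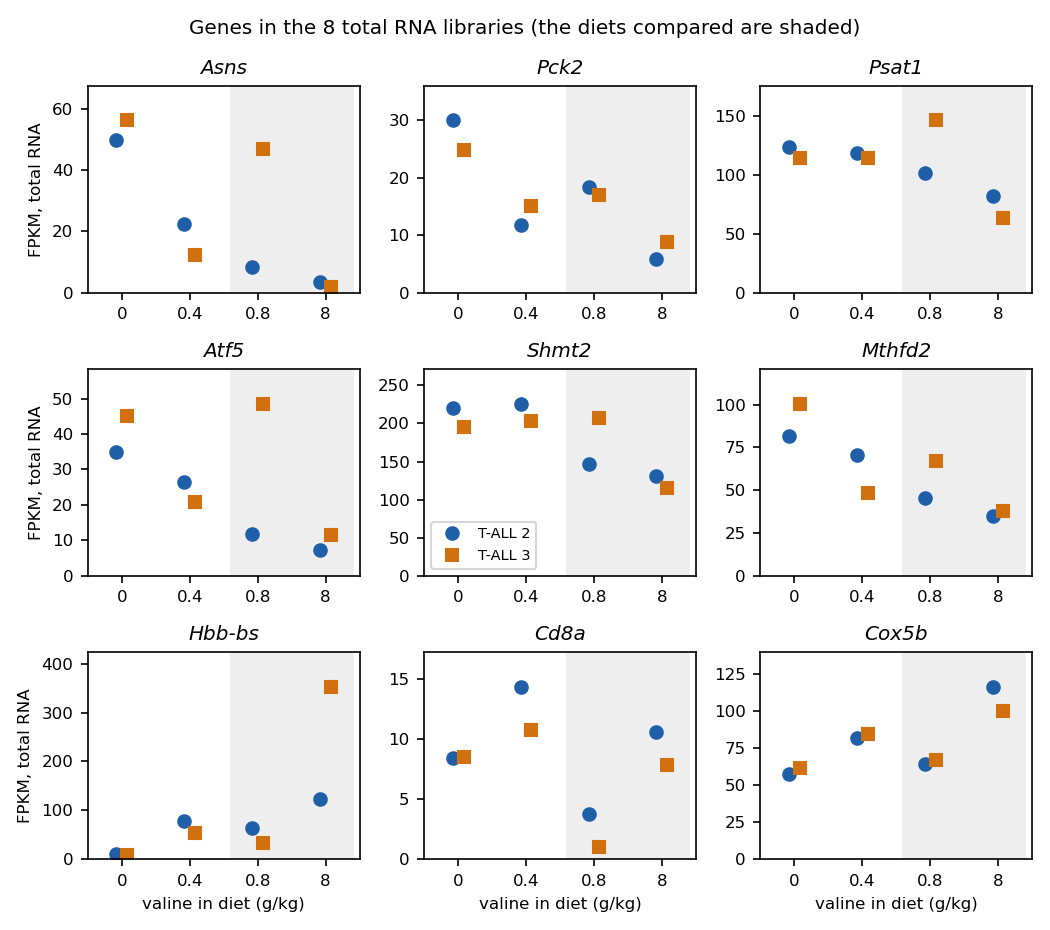
FPKM (y axis, from 0) of 9 genes in the 8 total RNA libraries by valine in the diet (x axis, g/kg), with circles for T-ALL 2 and squares for T-ALL 3; the diets compared are shaded. The T-ALL 3 square at 0.8 g/kg lies near the 0 g/kg levels for Asns (46.8 FPKM) and Atf5 (48.6 FPKM), while the T-ALL 2 circle lies at 8.22 and 11.7 FPKM.

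The tRNA synthetases and transporters had list medians near 0, with single members away from it. Vars, the valyl-tRNA synthetase that charges tRNA with valine, had 178 and 159 FPKM at 0.8 g/kg, against 175 and 160 FPKM at 8 g/kg, a log2 change of 0.01 with a 95% interval of -0.30 to 0.31. Of the 20 cytosolic tRNA synthetases 13 were higher and 7 lower, with a median of 0.06; the isoleucyl enzyme Iars had 0.43 ± 0.19 and the seryl enzyme Sars 0.37 ± 0.17. Of 15 amino acid transporters 11 were higher and 4 lower, with a median of 0.11. For the cationic transporter Slc7a3, 1 and 7 reads were found at 0.8 g/kg and 0 and 0 at 8 g/kg, so that nearly all of its reads came from the T-ALL 3 library, and the leucine and valine carrier Slc7a5 had a log2 change of 0.11 ± 0.28.

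The breakdown and sensing genes lay on both sides. Of 27 genes of branched-chain amino acid breakdown 12 were higher and 15 lower, with a median of -0.05. Bcat1, the cytosolic transaminase that starts the breakdown of valine, had 2.72 and 5.05 FPKM at 0.8 g/kg, against 1.23 and 2.15 FPKM at 8 g/kg, a log2 change of 0.98 ± 0.66. Both 0.8 g/kg libraries lay above both controls. Bckdha, of the dehydrogenase complex that follows, had a log2 change of -0.58 ± 0.30. Hsd17b10, a mitochondrial dehydrogenase of isoleucine breakdown, had 61.5 and 45.6 FPKM at 0.8 g/kg, against 77.8 and 81.5 FPKM at 8 g/kg. Of 33 genes of amino acid sensing by GCN2 and mTORC1, 19 were higher and 14 lower, with a median of 0.06.

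Complex I subunits lay on both sides of their control levels. Of 37 nuclear-encoded subunits 18 were higher and 19 lower, with a median log2 change of -0.01, and they took 31.5 and 33.6 of 10000 reads at 0.8 g/kg against 32.6 and 33.2 at 8 g/kg. An unadjusted p under 0.05 was reached by 3 on the higher side (1.31% of all genes), Ndufs3, Ndufa8 and Ndufa1, and by 4 on the lower (2.14% of all genes), Ndufab1, Ndufa5, Ndufa2 and Ndufa11. Of these Ndufab1 and Ndufa5 were named by rule and the other 5 after their values were seen. Ndufab1, the mitochondrial acyl carrier protein, had 18.7 and 15.7 FPKM at 0.8 g/kg, against 24.6 and 33.9 FPKM at 8 g/kg, a log2 change of -0.74 ± 0.23. The core subunit Ndufs3 had 95.1 and 98.8 FPKM at 0.8 g/kg, against 76.1 and 69.3 FPKM at 8 g/kg, a log2 change of 0.41 ± 0.15. Ndufs1 and Ndufb8 had 0.15 ± 0.26 and 0.27 ± 0.19, and the groups overlapped for both. Of all genes tested, 53.6% were lower.

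Among the other mitochondrial groups, Cox5b, a subunit of cytochrome c oxidase, at chr1:36691487-36693388, had 64.3 and 66.8 FPKM at 0.8 g/kg, against 116 and 100 FPKM at 8 g/kg, a log2 change of -0.72 ± 0.16, with an unadjusted limma p of 0.0015. The T-ALLs were close to each other on both diets. It had 57.1 and 61.3 FPKM at 0 g/kg and 81.5 and 84.6 FPKM at 0.4 g/kg. The 13 nuclear complex IV subunits as a list had a median of -0.03, with 4 higher and 9 lower. Medians were -0.14 for 13 subunits of complexes II and III, -0.13 for 17 ATP synthase subunits, -0.24 for 15 complex I assembly factors (0.055 in T-ALL 2 and -0.022 in T-ALL 3 taken alone), -0.04 for 13 mitochondrially encoded genes and -0.02 for 77 mitochondrial ribosomal proteins.

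Of the genes that build and run ribosomes, 31 of 80 cytosolic ribosomal proteins were higher and 49 lower, with a median of -0.02, and 34 were lower in both T-ALLs, as were 27.6% of all genes. They took 1322 and 1273 of 10000 reads at 0.8 g/kg, against 1324 and 1327 at 8 g/kg. Rpl36, of the large subunit, had a log2 change of -0.39 ± 0.12 and Rpl39l, a paralogue of Rpl39, one of 1.2 ± 0.39 from 15 and 7 reads at 0.8 g/kg against 10 and 6 at 8 g/kg. Reads of such families may be assigned to the wrong copy, so single members are uncertain. The median was -0.12 for 29 ribosome biogenesis genes, with 15 lower in both T-ALLs, and -0.04 for 38 proteasome subunits.

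The identity of the leukaemic cells was visible on both diets. Cd3e, of the T cell receptor complex, had 396 and 830 FPKM at 0.8 g/kg, against 417 and 750 FPKM at 8 g/kg, and Notch1 had 235 and 413 FPKM, against 275 and 369 FPKM. In both genes T-ALL 3 was above T-ALL 2 on either diet, and the diets overlapped. Among 17 Notch targets 9 were higher and 8 lower, with a median of 0.03; Hes1 and Dtx1, direct targets, had 0.08 ± 0.26 and 0.09 ± 0.19. Myc, the growth regulator that Notch drives in T-ALL, had 230 and 201 FPKM at 0.8 g/kg, against 272 and 262 FPKM at 8 g/kg, a log2 change of -0.31 ± 0.15, with an unadjusted limma p of 0.074.

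Cd8a was the T cell gene with the smallest unadjusted p. This α chain of the CD8 co-receptor, at chr6:71373427-71379171, had 3.78 and 0.972 FPKM at 0.8 g/kg, from 10 reads and 1 read, against 10.6 and 7.87 FPKM at 8 g/kg, from 38 and 19 reads. The log2 change was -1.94 ± 0.50, with an unadjusted limma p of 0.0042. At 0 g/kg it had 8.39 and 8.48 FPKM and at 0.4 g/kg 14.4 and 10.8 FPKM, so the 2 libraries at 0.8 g/kg were the lowest of all 8. Its partner chain Cd8b1 had 31.1 and 32.8 FPKM at 0.8 g/kg, against 40.1 and 54.1 FPKM at 8 g/kg, a log2 change of -0.54 ± 0.21 that turned to 0.04 when libraries were thinned to equal depth. The 28 T cell identity genes as a list had a median of 0.02.

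Mitosis genes stood on the higher side, with a size that moved with each library. Of 24 members 20 were higher and 4 lower, with a median of 0.20, and limma called 0, with 0 at an unadjusted p under 0.05. Aurka, a spindle kinase, had 23 and 41.5 FPKM at 0.8 g/kg, against 17.0 and 21.1 FPKM at 8 g/kg, and Kif11, a spindle motor, 53.3 and 79.5 FPKM, against 39.7 and 51.1 FPKM. With the T-ALL 3 sample on 0.8 g/kg left out the median was 0.04 and 13 members were higher, and with the T-ALL 2 control left out it was 0.10. It was 0.35 with the T-ALL 2 sample on 0.8 g/kg left out and 0.32 with the T-ALL 3 control left out. Among 31 genes of S phase and DNA replication 22 were lower, with a median of -0.09, but with the T-ALL 2 sample on 0.8 g/kg left out 21 were higher, with a median of 0.095. The licensing factor Cdt1 had 64.9 and 72.2 FPKM at 0.8 g/kg, against 112 and 98.8 FPKM at 8 g/kg. Of 61 replication-dependent histones 44 were higher, with a median of 0.08. With the T-ALL 2 control left out 26 were higher, with a median of -0.027, and with the T-ALL 3 sample on 0.8 g/kg left out 30 were, with a median of -0.00094.

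**Figure D3:**
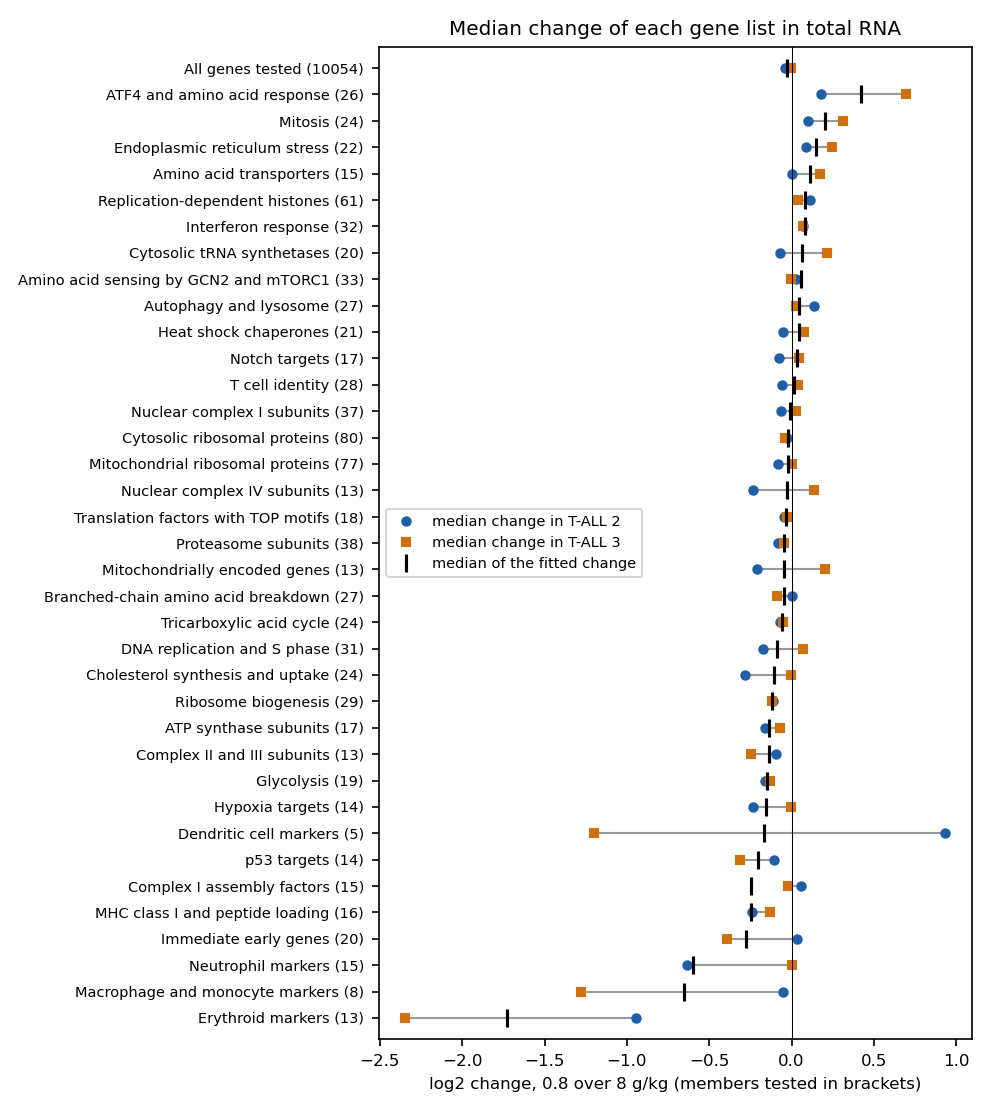
Median log2 change at 0.8 over 8 g/kg valine (x axis) of each gene list with at least 5 genes tested (y axis, number tested in brackets), with circles for T-ALL 2, squares for T-ALL 3 and bars for the median of the fitted change. The ATF4 list lies highest at 0.42, erythroid markers lowest at -1.73, and all genes at -0.03.

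Most erythroid markers were on the lower side. Of 13 tested, of 21 in the table, 12 were lower and 1 higher, with a median of -1.73. Klf1 and Hbb-bt reached the minimum of 1 FPKM only through the 8 g/kg libraries, so their direction was fixed by that filter. Of the other 11 members 10 were lower and 7 lower in both T-ALLs (27.6% of all genes), with a median of -0.93; this split was chosen after the values were seen. Limma called 0. Hbb-bs, a β-globin at chr7:103826523-103827928, had 64.1 and 33.9 FPKM at 0.8 g/kg, against 124 and 353 FPKM at 8 g/kg, a log2 change of -2.15 ± 0.48, with an unadjusted limma p of 0.0016. The 2 controls differed more from each other than the T-ALL 2 control did from either 0.8 g/kg library on the FPKM scale. The α-globin Hba-a2 had 66.2 and 60.4 FPKM, against 144 and 309 FPKM. Klf1, an erythroid transcription factor, had 0 and 0 reads, against 3 and 5 reads, and Slc4a1, the red cell anion exchanger, 3 reads and 1 read, against 16 and 24 reads. Hba-a2, Klf1 and Slc4a1 were named after their values were seen.

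The list took 3.22 and 2.96 of 10000 reads at 0.8 g/kg, against 4.55 and 6.68 at 8 g/kg. At 0 g/kg it took 2.62 and 1.66, and at 0.4 g/kg 3.57 and 3.59, so the 2 controls were the highest of the 8. Its summed level was 198 and 166 FPKM at 0.8 g/kg, against 361 and 773 FPKM at 8 g/kg. Of the 21 markers 9 and 10 were at 0 reads at 0.8 g/kg, against 2 and 2 at 8 g/kg. Over the whole table these shares were 10.2% and 15.7%, against 7.64% and 9.04%. Such counts depend on depth, and the 0.8 g/kg library was the shallower one in each T-ALL. The 21 also include markers too low to be tested, and Klf1 and Hbb-bt. Fewer erythroid cells among the sorted cells and less RNA per cell cannot be told apart in bulk libraries, and the part of erythroid RNA in the other results was not tested.

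Neutrophil markers did not separate 0.8 g/kg from control as they did 0 g/kg. They took 0.317 and 0.302 of 10000 reads at 0.8 g/kg, against 0.252 and 0.272 at 8 g/kg, from 29 and 11 reads against 32 and 23. At 0 g/kg they took 5.97 and 3.06. S100a8, a calcium-binding protein of neutrophils, had 6 reads and 1 read at 0.8 g/kg, against 3 reads and 1 read at 8 g/kg. Macrophage and monocyte markers took 0.710 and 0.329, against 0.725 and 0.780, and B cell markers 0.404 and 0.110, against 0.276 and 0.118. The natural killer list, which here is nearly all granzyme A, took 5.86 and 5.40, against 5.07 and 4.25.

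**Figure D4:**
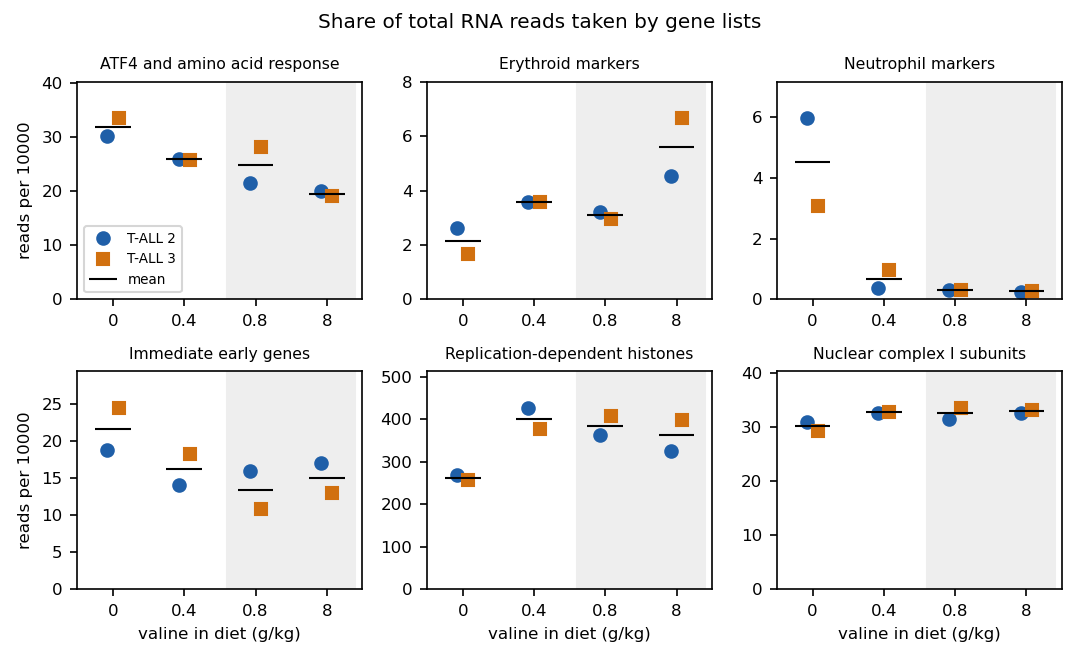
Reads of 6 gene lists per 10000 total RNA reads (y axis, from 0) by valine in the diet (x axis, g/kg), with circles for T-ALL 2, squares for T-ALL 3 and bars for the mean of the 2. The ATF4 list runs from 30.2 and 33.6 at 0 g/kg to 20.1 and 19.0 at 8 g/kg, neutrophil markers reach 5.97 and 3.06 at 0 g/kg, and complex I subunits lie between 29.2 and 33.6 in all 8 libraries.

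Stress and metabolic lists had medians between -0.28 and 0.15. With each library left out in turn, the medians of 17 of the 36 lists with at least 5 members tested took both signs. Among them were immediate early genes (-0.66 to 0.20, highest with the T-ALL 3 sample on 0.8 g/kg left out), the interferon list (-0.29 to 0.50), Notch targets (-0.24 to 0.23) and cholesterol genes (-0.33 to 0.048). Of 22 genes of endoplasmic reticulum stress 15 were higher, with a median of 0.15; the disulphide isomerase Pdia6 had 75.6 and 79.7 FPKM at 0.8 g/kg, against 46.6 and 53.6 FPKM at 8 g/kg, whereas the stress transcription factor Xbp1 had 5.56 and 7.14 FPKM, against 15.2 and 10.3 FPKM. The inducible chaperone Hspa1a had 16.0 and 3.07 FPKM, against 11.8 and 4.37 FPKM, and the groups overlapped. The interferon list had a median of 0.08, in which the RNA sensor Ddx58 had 9.47 and 15.7 FPKM, against 4.52 and 3.68 FPKM. Medians were -0.25 for MHC class I and peptide loading, -0.28 for immediate early genes, -0.20 for p53 targets, -0.15 for glycolysis, -0.06 for the tricarboxylic acid cycle and -0.11 for cholesterol synthesis and uptake, in which the demethylase Cyp51 had 4.52 and 3.09 FPKM, against 13.4 and 11.2 FPKM. Heat shock chaperones had one of 0.05, hypoxia targets -0.16, autophagy and lysosome genes 0.05 and translation factors with TOP motifs -0.03.

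The genes with the smallest unadjusted p among those at least 2-fold apart and of one sign in both T-ALLs were of mixed function. Such a change was present in 1.88% of all genes on the higher side and 3.37% on the lower. On the higher side were Ypel3, a growth-suppressing gene with 18.6 and 19.1 FPKM at 0.8 g/kg, against 4.94 and 5.69 FPKM at 8 g/kg and Cdkn2d, a cyclin-dependent kinase inhibitor with 29.8 and 28.7 FPKM, against 13.8 and 11.2 FPKM. Their log2 changes were 1.74 ± 0.34 and 1.2 ± 0.28. The clock gene Ciart gave 6 and 2 reads at 0.8 g/kg and 0 and 0 at 8 g/kg. With the 8 g/kg group set to 3 reads and the 0.8 g/kg reads taken as exact, the level was 4.4-fold higher. Faap24, Wdr20, Acyp1 and Pxmp2 were also on the higher side, beside Asns and Pck2.

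On the lower side, Sdhaf4, which helps to assemble complex II, showed 0 and 0 reads at 0.8 g/kg and 6 and 3 at 8 g/kg. With the 0.8 g/kg group set to 3 reads and the 8 g/kg reads taken as exact, the level was 1.82-fold lower. Sdhaf4 also had 0 reads in both libraries at 0 g/kg. The nucleoporin Nup35 had 2 and 0 reads, against 17 and 12, a ratio of 0.114 after scaling to library size with a 95% counting interval of 0.013 to 0.450. Tmem120a, a membrane protein, had 3.80 and 3.90 FPKM, against 13.5 and 13.3 FPKM, and Adi1, an enzyme of the methionine salvage pathway, 10.7 and 9.20 FPKM, against 27.5 and 22 FPKM. Milr1, AI413582, Gm16372, Hbb-bs, 1700010I14Rik and Ces5a were the other 6. Such genes rest on few reads in the shallower libraries. Gm16372, with 0 and 0 reads at 0.8 g/kg, against 2 and 2 at 8 g/kg, reached the minimum of 1 FPKM only through the 8 g/kg libraries. Its direction was thus fixed by that filter.

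One library decided the count of calls. With the T-ALL 2 sample on 0.8 g/kg left out, limma called 2 genes higher and 26 lower, with a lowest adjusted p of 0.011. The higher genes were Asns, with a log2 change of 3.93, and Gm11444. Of the 26 lower genes 20 had 0 reads in the T-ALL 3 library, and all 26 had at least 2 reads in the T-ALL 2 library at 0.8 g/kg. Rangrf, a Ran-binding protein, had 25 and 0 reads at 0.8 g/kg, against 38 and 24 at 8 g/kg. Batf, a transcription factor of activated T cells, had 6 and 0 reads, against 12 and 12, and Cirbp, a cold-inducible RNA-binding protein, 52 and 7 reads, against 118 and 72. Without any 1 of the other 3 libraries 0 genes were called. With the lone library assumed to vary like the other groups, these calls speak of the T-ALL 3 library at 0.8 g/kg. Ddit3 and Nup35 were also among them, and Rangrf, Batf, Cirbp and Gm11444 were named after their values were seen.

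Set against the other low-valine diets, 0.8 g/kg lay away from 0 g/kg in several lists. The T-ALL 3 library at 0 g/kg stood apart on the second principal component, at -68.4 against 1.59 to 16.9 for the other total RNA libraries. At 0.8 against 0 g/kg, 366 genes on the higher side (3.64%) and 334 on the lower (3.32%) reached an unadjusted p under 0.05. Together these were 700 genes (6.96%), against the 502.7 that uniform p-values would give. With only the 4 libraries compared there were 347. Voom called 0, with 170 higher and 306 lower at that level. The lowest adjusted p by limma was 0.194, for Hist2h2aa1. This histone had 600 and 669 FPKM at 0.8 g/kg, against 332 and 296 FPKM at 0 g/kg, a log2 change of 1.01 ± 0.12; it was named after its values were seen. Of the 61 histones 58 were higher, with a median of 0.58 beside 0.0096 for all genes. Immediate early genes had -1.14, with 19 of 20 lower. Of the 15 neutrophil markers tested, 7 reached 1 FPKM only through the 0 g/kg libraries, so their direction against 0 g/kg was fixed by that filter and no count is given. Hspa1a had 16.0 and 3.07 FPKM at 0.8 g/kg, against 140 and 214 FPKM at 0 g/kg, a log2 change of -4.50 ± 0.70 (adjusted p = 0.255 by limma). Neutrophil transcripts move with these differences from 0 g/kg, and their part in them was not tested.

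Against 0.4 g/kg the differences were fewer. An unadjusted p under 0.05 was reached by 124 genes on the higher side (1.23%) and 191 on the lower (1.9%), together 3.13%, and the lowest adjusted p by limma was 0.716, for Ccdc85b, with 27.2 and 25 FPKM at 0.8 g/kg, against 62.1 and 72.1 FPKM at 0.4 g/kg; it was named after its values were seen. Asns and Pck2 had log2 changes of 0.25 ± 0.68 and 0.40 ± 0.29, and Cd8a one of -2.37 ± 0.50.

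The ribosome-protected fragments (RPF), stretches of mRNA shielded by ribosomes, gave a second readout from the same diets. Limma called 0 of 9718 genes at 0.8 against 8 g/kg (0%), with 459 higher (4.72%) and 83 lower (0.854%) (5.58% together) at an unadjusted p under 0.05, a lowest adjusted p of 0.0813 and 129 higher and 504 lower by voom. The median of all genes was 0.30, 0.06 at equal depth and -0.18 by voom, so the direction of this shift depends on the scaling. Of the 24 ATF4 list members measured in RPF, 21 were higher, with a median of 0.94 beside 0.31 for the 9361 genes tested in both fractions. Of those 9361 genes, 5920 were higher. The list's RPF count and median were taken under the main scaling only, and were not tested at equal depth or by voom. Asns had 1 and 6 RPF reads at 0.8 g/kg, against 1 and 0 at 8 g/kg, Pck2 22 and 6, against 2 and 2, and Psat1 53 and 36, against 10 and 15. The RPF libraries at 0.8 g/kg held 205545 and 115202 reads, against 41848 and 71432, so raw reads are higher at 0.8 g/kg for most genes. The log2 changes of these 3 genes in FPKM were 1.87 ± 2.38, 1.13 ± 0.64 and 0.48 ± 0.63.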

How the data were processed

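Total RNA and ribosome-protected fragments were measured in sorted leukaemic cells, in 16 libraries. The authors deposited 1 table of FPKM values for 12012 genes, with replicates kept apart. Builds GRCm38 and mm10 and the tools edgeR 3.14.0, STAR 2.5.0c, Bowtie2 2.3.4 and cutadapt 1.18 are listed in the submitters' processing notes. How reads were counted, and the FPKM formula, is not given in the sources used here. Of 12001 symbols, 11869 were found in the RefSeq gene table (GRCm38.p6), which gave the positions.

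In each library the deposited FPKM values above 0 were whole multiples of 1 read over gene length. Of 149988 values, 100% came out whole within 0.02 reads, and on simulated data the true counts were recovered for 99.7% of 11950 genes. Total reads ranged from 364685 to 1269364 for total RNA and from 41848 to 205545 for RPF. Where a bound is given, a group at 0 was set to 3 reads in all. The reads of the other group were taken as exact, so a bound leaves out their counting error. Intervals cover counting error only, and neither covers the spread between libraries.

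Genes with a mean of at least 1 FPKM over the 8 libraries of a fraction were tested with limma 3.58.1 in R 4.3.3 (Python 3.11.15 for the rest) on log2(FPKM + 0.5), fitting diet over the 8 libraries with a variance trend and Benjamini-Hochberg adjustment at 0.05, two-sided. Log2 changes on this scale understate those of low genes. The alternatives were pseudocounts of 0.1 and 1, no filter, a mean of at least 5 FPKM, the 4 libraries alone, a replicate block, no variance trend, median centring, voom on recovered reads, equal depth, and leaving out each library. The test was tried on simulated data, where 10 unchanged genes of the 10054 run were called at 0.8 against 8 g/kg.

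Genes were named by rule: in each direction the 10 of smallest unadjusted p whose log2 change was 1 or more in size with 1 sign in both T-ALLs, the 2 of each list with the smallest p, and a fixed set. Others are marked in the text. One gene that the rule names is not reported here. The 41 gene lists, and the choice of comparison, were made with earlier results of these data known. Samples with the same T-ALL number were not treated as paired.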

Additional observations from a re-analysis of the deposited data

How the results depend on the processing

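At 0.8 against 8 g/kg in total RNA, 0 genes were called by limma in each alternative except 1. Leaving out a library gave 0 to 2 genes higher and 0 to 26 lower. At 0.8 against 0 g/kg the same range was 0 to 3 higher and 0 to 27 lower, and at 0.8 against 0.4 g/kg 0 to 1 higher and 0 to 26 lower. In all 3 comparisons the most calls came with the T-ALL 2 sample of 0.8 g/kg left out, and against 0 g/kg 3 higher genes were also called with the T-ALL 2 sample of 0 g/kg left out; in RPF 0 genes were called throughout. With the T-ALL number as a replicate block, 0 genes were called, 146 were higher and 245 lower at an unadjusted p under 0.05, and the lowest adjusted p by limma was 0.978, so the block changed no call. The T-ALL 2 minus T-ALL 3 differences of 0.8 and 8 g/kg correlated across genes at 0.25, and those of the other pairs of diets at -0.04 to 0.21. The lowest adjusted p by limma was 0.0843 without the variance trend. The median of the ATF4 list lay between 0.32 and 0.63, and that of erythroid markers between -2.28 and -1.18, over 8 alternatives. These were each library left out, voom, equal depth, median centring and the replicate block. The other alternatives, among them the pseudocounts and filters, are not in these ranges. Without Klf1 and Hbb-bt the erythroid median was -0.93.

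Over the 135 named genes, 1817 values kept their direction and their side of the threshold, 8 passed it and 34 turned sign, in 18 genes. At equal depth Cd8b1 was at 0.035, Aco1 at 0.18, Ly6d at -0.95, Vars at -0.038, Cd3e at -0.020, Hspa1a at 0.19 and S100a9 at 0.46. By voom Itgb3 was at 0.50, Hes1 at -0.011, Cd3e at -0.041 and Hspa1a at 0.41. The log2 change of Hspa1a was 0.00485 with a pseudocount of 1 and 0.00235 with centred libraries. With each library left out in turn, Blk ranged over -1.25 to 0.54, Itgb3 -1.14 to 1.03, Pecam1 -0.16 to 0.36, Col1a2 -0.86 to 0.21, Atf4 -0.11 to 0.68, Trib3 -1.52 to 0.48, Slc7a5 -0.28 to 0.51, Vars -0.073 to 0.089, Notch1 -0.43 to 0.38, Hes1 -0.28 to 0.43, Dtx1 -0.044 to 0.23, Cd3e -0.50 to 0.57, Ndufs1 -0.0026 to 0.30, Hspa1a -1.11 to 1.09 and S100a9 -5.16 to 0.64. The cause was not tested. Of 504 list medians under the alternatives, 421 moved by less than the spread between the T-ALLs.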

Other observations

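Clock genes were listed after Ciart was seen among the genes with the smallest unadjusted p. Of 17 listed, 11 were tested, 5 were higher and 6 lower at 0.8 g/kg, with a median log2 change of -0.27, and limma called 0. Per1, a repressor of the clock, had 6.34 and 5.21 FPKM at 0.8 g/kg, against 13.7 and 11.6 FPKM at 8 g/kg, a log2 change of -1.07 ± 0.31, with an unadjusted limma p of 0.0075. Arntl, which encodes the activator BMAL1, had 9 reads and 1 read, against 16 and 16 reads, a log2 change of -1.26 ± 0.57. The time of day at which the mice were killed is not given in the labels, and its part was not tested.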
